A study of Mus musculus with 11 samples.

Results

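The 8 genes described here encode parts of the dystrophin glycoprotein complex and were taken by name as a fixed set, namely Dmd, Utrn, Dag1, Sgca, Sgcb, Sgcd, Dtna and Sntb1. All 8 were found by symbol among the 25006 genes counted in each library, and all 8 were among the 14779 genes with enough counts to be tested. The 11 libraries were made from mRNA of mouse left ventricle, 1 library per mouse. Mice either were naive or had a permanently ligated descending coronary artery, and the infarcted ventricle was collected 9 days after this myocardial infarction (MI), with a matching area taken from naive hearts. The genotype label of the control mice is Vegfc fl/fl, whereas the protocol text of the labels names LysMCre mice as the comparison group. The other genotype is Vegfc fl/fl ; LysMCre, called Vegfc-deficient here, in which Cre recombinase expressed from the myeloid gene Lyz2 deletes the lymphangiogenic growth factor gene Vegfc in myeloid cells. Cardiac muscle itself is not the target of this Cre. The naive hearts gave 2 control and 3 Vegfc-deficient libraries, and the infarcted hearts 3 of each genotype. The ages of the mice are not given in the sources used here.

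The complex links the actin cytoskeleton of a muscle cell, through its membrane, to the laminin of the surrounding matrix, and it is known for protecting the cardiomyocyte membrane during contraction. Dystrophin (Dmd), or its relative utrophin (Utrn), anchors actin to β-dystroglycan, which Dag1 encodes together with the laminin-binding α-dystroglycan. The sarcoglycans stabilize dystroglycan at the membrane, and the dystrobrevins and syntrophins form the cytoplasmic side and bind signaling proteins such as nitric oxide synthase. Mutations in several of these genes cause muscular dystrophy with cardiomyopathy.

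On mm10 (GRCm38, gene models of GENCODE M21), Dmd (ENSMUSG00000045103) spans bases 82948870 to 85206141 of chromosome X, 2257272 bases with 14 annotated transcripts. Utrn (ENSMUSG00000019820) lies on chromosome 10 from 12382188 to 12869365, Dag1 (ENSMUSG00000039952) on chromosome 9 from 108204634 to 108263958 and Sgca (ENSMUSG00000001508) on chromosome 11 from 94962791 to 94976327. Sgcb (ENSMUSG00000029156) lies on chromosome 5 from 73632749 to 73647790 and Sgcd (ENSMUSG00000020354) on chromosome 11 from 46896253 to 47988969. Dtna (ENSMUSG00000024302) lies on chromosome 18 from 23415135 to 23659715 and Sntb1 (ENSMUSG00000060429) on chromosome 15 from 55636388 to 55906949. Only Dtna among the 8 shares exon bases with another annotated gene, 90 bases (0.532% of its exons) with an antisense transcript that was not among the counted genes. A count covers the whole gene, so transcripts of Dmd that begin at different start sites were added together.

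Total counts ranged from 10824989 to 26782728 per library, of which the 8 genes together had 6661 to 10898. Levels are counts-per-million values (CPM) after edgeR's TMM scaling of the library totals, and 3 counts were worth 0.101 to 0.363 CPM, a floor that covers counting error only. The 14 cardiomyocyte markers (among them Myh6, Tnnt2 and Actc1) summed to 120385 to 158323 CPM in naive libraries and to 4068 to 38567 CPM in MI libraries. Fewer cells of a type and less RNA per cell cannot be told apart in these bulk samples. The 8 fibroblast markers summed to 4828 to 6730 CPM in naive and 29965 to 47562 CPM in MI libraries, and the 8 macrophage markers to 1761 to 2515 CPM and 2382 to 6029 CPM. Skeletal muscle markers summed to at most 24.7 CPM in any library, and Myh1, Myh2, Myh4 and Atp2a1 were too low to be tested. Vegfc was at 21.9 to 45.5 CPM over all libraries and did not separate the genotypes. Lyz2, which carries the Cre insertion, was at 4538 to 5380 CPM in MI control libraries. Among MI Vegfc-deficient libraries it was at 12.4 CPM in M913 and 203 CPM in M900, but at 1392 CPM in M35. In naive hearts it was at 72.5 and 245 CPM in Vegfc-deficient M150 and M34, whereas the naive library labelled Vegfc-deficient with the name M149 had 4565 CPM, more than either naive control (2121 and 2282 CPM). Xist, expressed from the inactive X chromosome of females, had 188 to 403 CPM in every MI library and no more than 11.8 CPM in any naive one. Sex and MI therefore cannot be told apart in any comparison of MI with naive hearts below. Of the 8 genes Dmd lies on the X chromosome, as do Drp2 and Bgn among the listed genes named further below.

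RefSeq start sites on GRCm38.p6 were matched for 6 of the 8 genes (8 windows). The 250 bases before each start were searched on both strands for motifs known from muscle promoters, namely the CArG box, the MEF2 site, the MCAT motif (CATTCC) and the E-box (CANNTG). Of 32851 windows of this length, 1.47% held a CArG box, 2.92% a MEF2 site, 12.6% an MCAT motif and 66.2% an E-box. Of the 8 windows here, 1 held a CArG box, 1 a MEF2 site, 1 an MCAT motif and 6 an E-box. Both windows of Dmd are shown because its count sums transcripts from starts 2099425 bases apart, and that of Sgca because this gene had the largest fall in CPM of the 8 after MI. The first Dmd window is chrX:82948620-82948869 on the plus strand, at the annotated start of the gene, with a MEF2 site that begins 244 bases and a CArG box that begins 98 bases before the start site, both in capitals (its 2 E-boxes are left in lower case). The second is chrX:85048045-85048294 on the plus strand, inside the gene and 157846 bases from its end, and holds none of these letters. The Sgca window is chr11:94976328-94976577 on the minus strand, with its E-box in capitals. A match describes the letters and is not evidence of binding.
Dmd, start of the gene: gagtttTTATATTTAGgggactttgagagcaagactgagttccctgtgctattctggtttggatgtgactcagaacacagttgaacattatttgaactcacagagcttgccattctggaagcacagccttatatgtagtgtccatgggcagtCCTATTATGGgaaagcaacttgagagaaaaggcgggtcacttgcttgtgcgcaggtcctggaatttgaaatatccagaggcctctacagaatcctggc
Dmd, start inside the gene: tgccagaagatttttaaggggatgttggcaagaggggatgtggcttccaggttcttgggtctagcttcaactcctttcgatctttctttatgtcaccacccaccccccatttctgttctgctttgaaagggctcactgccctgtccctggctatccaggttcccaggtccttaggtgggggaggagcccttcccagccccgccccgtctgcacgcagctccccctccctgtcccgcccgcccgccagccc
Sgca: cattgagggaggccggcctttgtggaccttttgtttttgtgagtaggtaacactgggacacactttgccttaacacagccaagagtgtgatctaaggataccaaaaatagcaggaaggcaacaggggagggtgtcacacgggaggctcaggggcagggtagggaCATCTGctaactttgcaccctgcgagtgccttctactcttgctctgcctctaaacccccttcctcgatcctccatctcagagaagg

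The levels of the 8 genes were compared with each other as CPM per kilobase of merged exons. In the 5 naive libraries the level was highest for Sgca at 72.6 ± 9.92 CPM per kilobase (SD, n = 5), followed by Sgcb at 40.5 ± 3.17, Dag1 at 30.9 ± 1.79 and Dtna at 5.28 ± 0.967 CPM per kilobase. Utrn was at 3.22 ± 0.278, Sgcd at 2.73 ± 0.634, Dmd at 2.09 ± 0.380 and Sntb1 at 0.862 ± 0.218 CPM per kilobase. In this order the ranges of Utrn and Sgcd overlapped, as did those of Sgcd and Dmd, and the other neighbors were apart. In the 6 MI libraries the level was highest for Sgcb (26.6 ± 3.13 CPM per kilobase, n = 6), then Dag1 (21.3 ± 3.44) and Sgca (11.3 ± 7.01), and these neighbors overlapped. Utrn (3.29 ± 0.444) and Sgcd (2.52 ± 0.339) followed and overlapped, and Dmd (1.31 ± 0.240), Sntb1 (1.23 ± 0.0920) and Dtna (1.12 ± 0.635 CPM per kilobase) overlapped at the bottom. Sgca thus moved from the first to the third place. In MI libraries the place of Dtna depended on the length used. With the longest transcript as length, Dtna was at 3.01 CPM per kilobase there, above Dmd. In naive libraries it was at 14.2 CPM per kilobase with that length and kept its place. Utrn and Sgcd, whose ranges overlapped, changed places with that length. Sgcd was at 5.06 and Utrn at 4.44 CPM per kilobase in naive libraries, and at 4.68 and 4.54 in MI libraries.

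**Figure D1:**
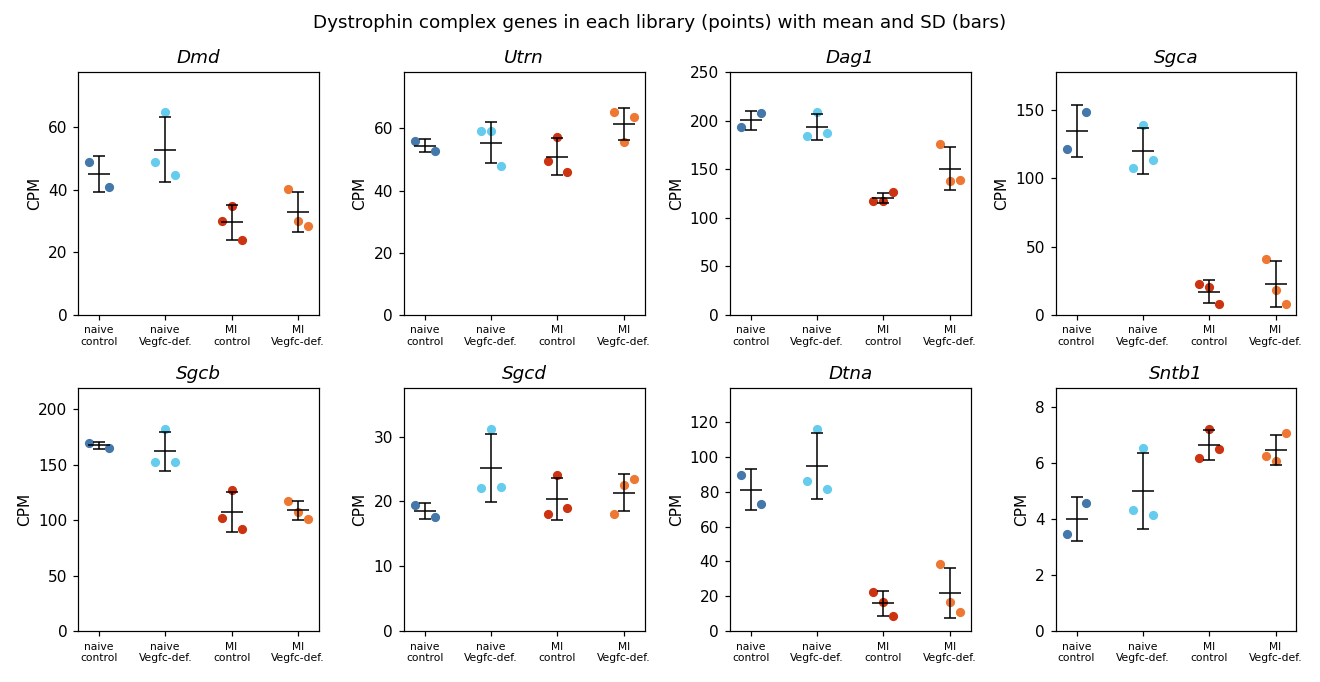
CPM of each of the 8 genes (y axes, from 0) in the 4 groups (x axes), with 1 point per library and bars for the mean and SD. In CPM, Sgca and Dtna are far lower in all 6 MI libraries than in the 5 naive ones. Dag1, Sgcb and Dmd are lower without overlap, and Utrn and Sgcd overlap. Relative to the cardiomyocyte markers the log2 fold change of all 8 is positive, but Sgca and Dtna are called in neither genotype.

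The first comparison asked how infarcted and naive ventricle differed within each genotype. In CPM, Sgca and Dtna fell most, Dmd, Dag1 and Sgcb fell by less, and Utrn and Sgcd passed the test in neither genotype. Relative to the summed cardiomyocyte markers each of these falls changed sign, but Sgca and Dtna passed the test there in neither genotype. In control mice 5 of the 8 genes were called lower and 1 higher at an adjusted p under 0.05 (edgeR's quasi-likelihood test, Benjamini-Hochberg over all 14779 genes), where 24.1% of all genes tested were called lower and 26.3% higher. In Vegfc-deficient mice 5 were called lower and 0 higher, where 27.7% of all genes were called lower and 30% higher. The control count of 6 was 3 without naive control M45. The Vegfc-deficient count of 5 was 3 without M900, and 4 without M149, labelled naive Vegfc-deficient. The median log2 fold change of the 8 genes was -0.62 in control and -0.47 in Vegfc-deficient mice, beside 0.13 and 0.097 over all genes tested. Of the 14 cardiomyocyte markers 14 and 13 were called lower, with medians of -3.06 and -2.68, and of the 8 fibroblast markers 6 and 7 were called higher.

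Scaling the libraries to the 14 cardiomyocyte markers moved the median log2 fold change of all genes to 4.10 in control and 3.26 in Vegfc-deficient mice. Under it Dmd, Utrn, Dag1, Sgcb, Sgcd and Sntb1 were called higher in both genotypes, 6 of the 8 genes, where 90.5% of all genes were called higher in control and 85.5% in Vegfc-deficient mice. Sgca and Dtna were called in neither. A scaling moves all genes by a similar amount, so subtracting the shifted median largely returns the change in CPM. The values relative to it are therefore a description and not a second test. Relative to that shifted median, the change in control mice was -3.69 for Sgca, -2.95 for Dtna, -0.89 for Dmd, -0.88 for Sgcb and -0.82 for Dag1. In Vegfc-deficient mice it was -3.06 for Sgca, -2.63 for Dtna, -0.88 for Dmd, -0.72 for Sgcb and -0.53 for Dag1. Utrn (-0.30 and 0.062), Sgcd (-0.037 and -0.25) and Sntb1 (0.57 and 0.33) lay nearer to the median of all genes.

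**Figure D2:**
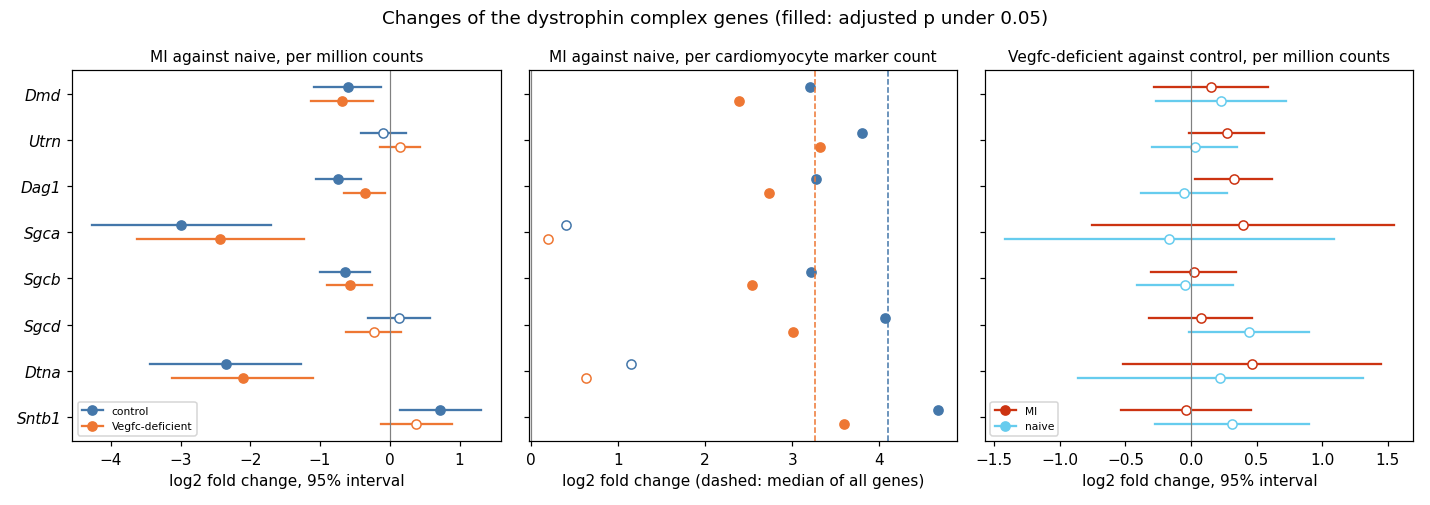
Log2 fold changes (x axes) of the 8 genes (y axis) for MI against naive in CPM (left), MI against naive per cardiomyocyte marker count (middle, dashed lines for the median of all genes) and Vegfc-deficient against control in CPM (right). Horizontal lines on the left and right are 95% intervals, the middle shows points only, and filled points have an adjusted p under 0.05. Sgca and Dtna lie lowest on the left, all points are positive in the middle with Sgca and Dtna nearest to 0 and unfilled, and no point is filled on the right.

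Of the anchors, Dmd, which encodes dystrophin, was at 49.0 and 41.0 CPM in naive control M45 and M44 and at 49.0, 64.8 and 44.8 CPM in naive Vegfc-deficient M34, M150 and M149. After MI it was at 30.0, 34.9 and 23.9 CPM in control M38, M006 and M40 and at 40.4, 29.9 and 28.4 CPM in Vegfc-deficient M35, M913 and M900. Every MI library lay below every naive library. The log2 fold change was -0.61 in control (SE 0.22, adjusted p = 0.0402 by edgeR) and -0.68 in Vegfc-deficient mice (SE 0.20, adjusted p = 0.0136), whereas relative to the cardiomyocyte markers it was 3.21 and 2.38. The control call was lost without M45, M44, M38, M40 or M34 (log2 fold changes from -0.73 to -0.47), and the Vegfc-deficient call without M150 (-0.51) or M900 (-0.59).

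Utrn, which encodes the dystrophin relative utrophin of many cell types, was at 55.9 and 52.9 CPM in naive control hearts and at 59.2, 59.2 and 47.9 CPM in naive Vegfc-deficient hearts, in the same order. In MI libraries Utrn was at 49.6, 57.3 and 45.9 CPM in control and at 65.2, 55.6 and 63.7 CPM in Vegfc-deficient libraries. The naive and MI libraries overlapped in both genotypes. Its log2 fold change was -0.095 in control (95% interval -0.42 to 0.23, adjusted p = 0.603 by edgeR) and 0.15 in Vegfc-deficient mice (-0.14 to 0.44, adjusted p = 0.344), and 3.80 and 3.32 relative to the cardiomyocyte markers. The ratio of Utrn to Dmd per kilobase, in which the library scaling cancels, was 1.27 to 1.79 in naive and 2.25 to 3.12 in MI libraries, without overlap. The mean log2 ratio was higher after MI by 0.52 in control and by 0.84 in Vegfc-deficient mice.

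Of the membrane subunits, Dag1, the gene of dystroglycan, was at 194 and 207 CPM in naive control hearts and at 184, 209 and 187 CPM in naive Vegfc-deficient hearts. In infarcted hearts Dag1 was at 117, 117 and 126 CPM in control and at 176, 138 and 139 CPM in Vegfc-deficient libraries. All MI libraries lay below all naive libraries, with M35 nearest to them. Dag1 had a log2 fold change of -0.74 in control (SE 0.15, adjusted p = 0.00254 by edgeR) and -0.36 in Vegfc-deficient mice (SE 0.13, adjusted p = 0.0399), against 3.28 and 2.73 relative to the cardiomyocyte markers. The Vegfc-deficient call was lost when M45, M44, M006, M34, M150, M149, M913 or M900 was left out, with log2 fold changes from -0.39 to -0.30 (-0.38 and an adjusted p of 0.0558 by edgeR without M149). It was also lost with no filter on low counts (-0.33, adjusted p = 0.0853) and with only the groups compared (-0.32, adjusted p = 0.125).

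Sgca, the gene of α-sarcoglycan, which is largely restricted to striated muscle, was at 121 and 148 CPM in naive control hearts and at 108, 139 and 114 CPM in naive Vegfc-deficient hearts. The MI libraries had Sgca at 22.7, 20.6 and 7.56 CPM in control and at 40.8, 18.4 and 8.01 CPM in Vegfc-deficient libraries. The groups were far apart, and M40 and M900 were lowest. The log2 fold change was -2.99 in control (SE 0.58, adjusted p = 0.00221 by edgeR) and -2.43 in Vegfc-deficient mice (SE 0.54, adjusted p = 0.00335), whereas relative to the cardiomyocyte markers it was 0.41 (adjusted p = 0.675) and 0.20 (adjusted p = 0.823). As a percentage of the summed cardiomyocyte markers, Sgca was at 0.0771% to 0.112% in naive and 0.0901% to 0.186% in MI libraries, and these ranges overlapped.

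Sgcb, the gene of β-sarcoglycan, which is expressed beyond striated muscle, was at 170 and 165 CPM in naive control hearts and at 152, 182 and 152 CPM in naive Vegfc-deficient hearts. Infarcted hearts had Sgcb at 102, 128 and 92.1 CPM in control and at 117, 107 and 101 CPM in Vegfc-deficient libraries. All MI libraries lay below all naive libraries. Between MI and naive hearts the log2 fold change was -0.64 in control (SE 0.16, adjusted p = 0.00828 by edgeR) and -0.58 in Vegfc-deficient mice (SE 0.15, adjusted p = 0.00714), against 3.22 and 2.54 relative to the cardiomyocyte markers. The control call was lost without naive control M45 (-0.62, adjusted p = 0.0570 by edgeR).

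Sgcd, the gene of δ-sarcoglycan, was at 19.4 and 17.7 CPM in naive control hearts and at 22.1, 31.2 and 22.2 CPM in naive Vegfc-deficient hearts. Sgcd after MI was at 18.0, 24.0 and 19.0 CPM in control and at 18.0, 22.6 and 23.4 CPM in Vegfc-deficient libraries. The naive and MI libraries overlapped in both genotypes. Its log2 fold change was 0.13 in control (95% interval -0.32 to 0.58, adjusted p = 0.605 by edgeR) and -0.23 in Vegfc-deficient mice (-0.63 to 0.16, adjusted p = 0.285), and 4.06 and 3.01 relative to the cardiomyocyte markers.

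On the cytoplasmic side, Dtna, the gene of α-dystrobrevin, was at 89.5 and 72.8 CPM in naive control hearts and at 86.3, 116 and 81.6 CPM in naive Vegfc-deficient hearts. Dtna in infarcted hearts was at 22.5, 16.7 and 8.44 CPM in control and at 38.4, 16.6 and 11 CPM in Vegfc-deficient libraries. The groups were far apart, and as for Sgca, M35 was the highest and M40 the lowest MI library. Dtna had a log2 fold change of -2.35 in control (SE 0.49, adjusted p = 0.00316 by edgeR) and -2.11 in Vegfc-deficient mice (SE 0.46, adjusted p = 0.00287), whereas relative to the cardiomyocyte markers it was 1.15 (adjusted p = 0.247) and 0.63 (adjusted p = 0.469). As a percentage of the summed cardiomyocyte markers, Dtna was at 0.0548% to 0.0735% in naive and 0.0895% to 0.207% in MI libraries, without overlap.

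Sntb1, the gene of β1-syntrophin, had the lowest counts of the 8, from 38 to 182 in a library. It was at 3.44 and 4.55 CPM in naive control hearts and at 4.31, 6.54 and 4.12 CPM in naive Vegfc-deficient hearts. The MI values of Sntb1 were 6.15, 7.21 and 6.49 CPM in control and 6.23, 6.05 and 7.04 CPM in Vegfc-deficient libraries. The control groups were apart, and the Vegfc-deficient groups overlapped through naive M150. Sntb1 had a log2 fold change of 0.73 in control (SE 0.26, adjusted p = 0.0401 by edgeR) and 0.38 in Vegfc-deficient mice (SE 0.23, adjusted p = 0.181), and 4.67 and 3.59 relative to the cardiomyocyte markers. The control call was lost with DESeq2's size factors in the same fit (0.66, adjusted p = 0.0555), with no filter on low counts (0.74) and with only the groups compared (0.72). It was also lost without M45, M44, M38, M006, M40, M913 or M900, with log2 fold changes from 0.54 to 0.94. In Vegfc-deficient mice Sntb1 passed the test without M150 (0.61, adjusted p = 0.0495 by edgeR).

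Within the 6 MI libraries the summed cardiomyocyte markers ranged from 4068 CPM in M40 to 38567 CPM in M35. There, Pearson's r between log2 CPM of the gene and the log2 sum was 0.953 for Sgca, 0.957 for Dtna, 0.878 for Dmd and 0.698 for Sgcb. It was 0.373 for Dag1, 0.495 for Utrn, -0.20 for Sgcd and -0.35 for Sntb1. These coefficients describe 6 libraries in which both values share the library total.

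**Figure D3:**
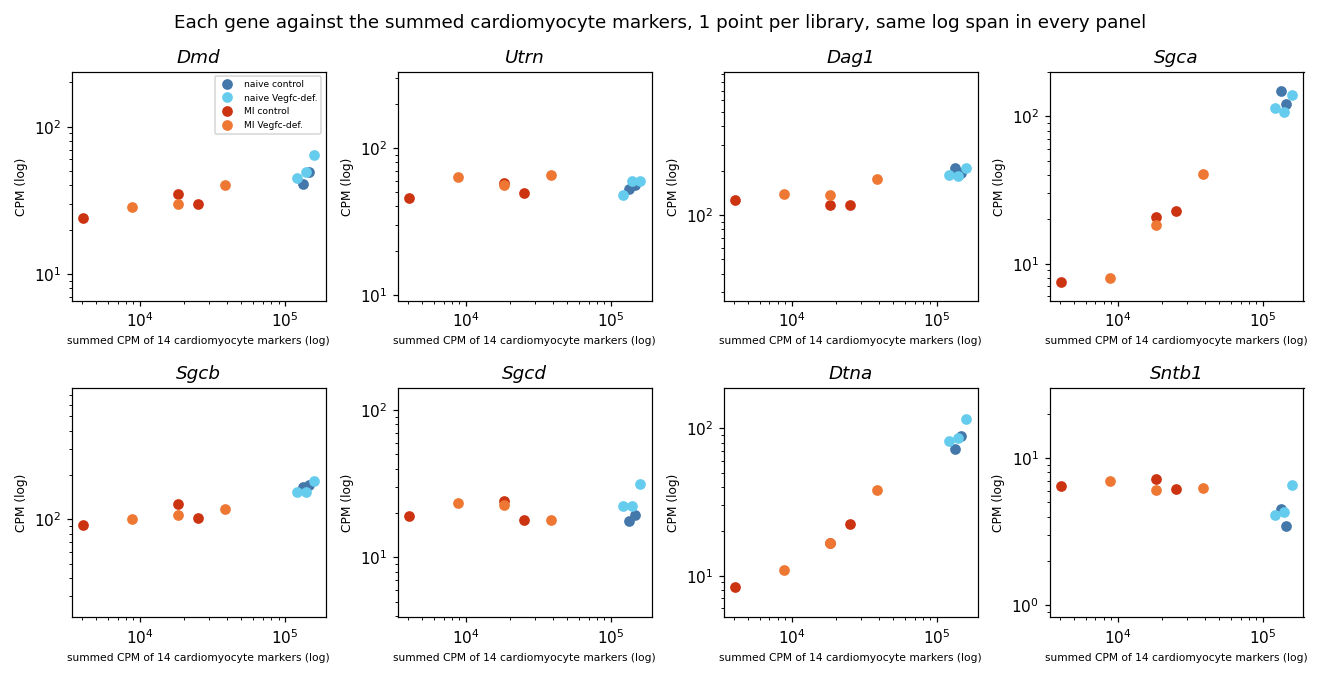
CPM of each gene (y axes, log scale, the same span in every panel) against the summed CPM of the 14 cardiomyocyte markers (x axes, log scale), with 1 point per library and a color for each of the 4 groups. Sgca and Dtna climb with the marker sum within the 6 MI libraries as well (r = 0.953 and 0.957), while r was 0.495 for Utrn and -0.20 for Sgcd, whose MI and naive libraries overlap.

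Other genes of the complex and its surroundings were read from lists in the same fit. Of all genes tested, 26.3% were called higher and 24.1% lower in control, and 30% and 27.7% in Vegfc-deficient mice. The medians over all genes tested were 0.13 and 0.097. Of 12 further subunits and partners 10 were tested, and 4 were called higher and 3 lower in control and 6 higher and 3 lower in Vegfc-deficient mice, with medians of 0.78 and 0.82. Among the genes called lower in both genotypes was Cav3, the caveolin of muscle membranes, at 119 to 155 CPM in naive and 15.9 to 33.9 CPM in MI libraries. Its log2 fold change was -2.29 in control (SE 0.29) and -2.61 in Vegfc-deficient mice (SE 0.27), but 1.37 and 0.36 relative to the cardiomyocyte markers. Relative to the shifted median of all genes under that scaling, Cav3 was at -2.73 and -2.90.

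Partners called higher in both genotypes were Sntb2, Dtnb, Drp2 and Sntg2. Under the cardiomyocyte scaling Sntb2 lay above the shifted median of all genes by 1.5 and 1.73, and Dtnb by 1.12 and 0.74. Sntb2, the gene of β2-syntrophin, was at 25.8 to 32.8 CPM in naive and 72.0 to 108 CPM in MI libraries, with log2 fold changes of 1.55 (SE 0.18) and 1.80 (SE 0.16). Dtnb, the gene of β-dystrobrevin, was at 3.08 to 5.13 CPM in naive and 6.88 to 8.68 CPM in MI libraries, with log2 fold changes of 1.23 and 0.79. Drp2, a dystrophin-related gene, and Sntg2, the gene of γ2-syntrophin, were at most 1.07 and 0.446 CPM in naive libraries and at 2.10 to 4.78 and 0.917 to 6.59 CPM in MI libraries. The naive values of Sntg2 lay near the floor, since 3 counts were worth 0.244 to 0.363 CPM there, so the size of its change is uncertain. Sgce, the ε-sarcoglycan of many tissues, was at 44.5 to 73.2 CPM in naive and 68.6 to 107 CPM in MI libraries. Its log2 fold change was 0.32 in control (adjusted p = 0.200 by edgeR) and 0.85 in Vegfc-deficient mice (adjusted p = 0.00242), and the difference between the genotypes did not pass the interaction test (adjusted p = 0.618). Nos1, the neuronal nitric oxide synthase, had at most 0.357 CPM in naive and 1.10 CPM in MI libraries. Its naive values thus lay near the floor of 3 counts, which were worth 0.244 to 0.363 CPM in naive libraries. Nos1 was called higher in Vegfc-deficient mice (adjusted p = 0.0264 by edgeR) but not in control mice (adjusted p = 0.191). The interaction test called 0 of the 10 partners tested, so a difference between the genotypes in Nos1 was not shown. Sspn, the gene of sarcospan, had log2 fold changes of -0.40 and -0.37 and was not called.

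Ratios of related genes were added after the values were seen and are a description. The ratio of Sgce to Sgca per kilobase was 0.0641 to 0.0989 in naive and 0.391 to 2.12 in MI libraries. The ratio of Dtnb to Dtna was 0.0607 to 0.105 in naive and 0.348 to 1.77 in MI libraries. MI and naive libraries did not overlap in either ratio, and M40 and M900 were the highest MI libraries in both. The size of a ratio depends on the length used, but its change between libraries does not. Sgce has 10612 merged exon bases and 4416 in its longest transcript, against 1735 and 1724 for Sgca. The mean log2 ratio was higher after MI by 3.43 in control and 3.58 in Vegfc-deficient mice for Sgce to Sgca, and by 3.70 and 3.08 for Dtnb to Dtna.

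**Figure D4:**
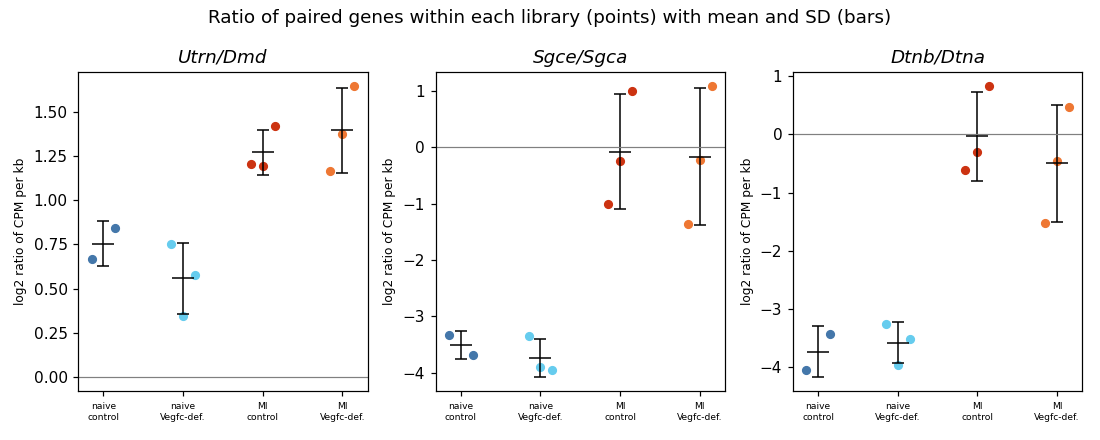
Log2 ratio of CPM per kilobase (y axes) of 3 pairs of genes (Utrn to Dmd, Sgce to Sgca and Dtnb to Dtna) in the 4 groups (x axes), with 1 point per library and bars for the mean and SD. All 6 MI libraries lie above the 5 naive libraries in every panel. The gray line at 0 marks equal levels per kilobase of merged exons, and where points lie against it depends on that length.

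Outside the cell, dystroglycan binds laminins, agrin and perlecan, and biglycan binds the complex. Of 8 such genes 7 were tested, and 3 were called higher in control and 4 in Vegfc-deficient mice, with 0 lower and medians of 0.20 and 0.92. Of all genes tested, 26.3% and 30% were called higher and 24.1% and 27.7% lower, with medians of 0.13 and 0.097. Bgn, the gene of biglycan, had log2 fold changes of 3.21 and 3.43, Agrn, the gene of agrin, of 1.01 and 0.92, and Hspg2, the gene of perlecan, of 0.75 and 1.12. Each was called in both genotypes. Under the cardiomyocyte scaling they lay above the shifted median of all genes by 3.24 and 3.45 for Bgn, 0.78 and 0.91 for Agrn, and 0.76 and 1.06 for Hspg2. These values, too, largely repeat the changes in CPM. Lama2, the laminin chain of muscle basement membrane, was at 170 to 192 CPM in naive and 108 to 262 CPM in MI libraries, with log2 fold changes of -0.36 and 0.11 (3.50 and 3.09 relative to the cardiomyocyte markers), and was not called.

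For the 2 lists that follow, the shares of all genes tested were 26.3% higher and 24.1% lower in control, and 30% and 27.7% in Vegfc-deficient mice. The medians over all genes were 0.13 and 0.097. Of 18 genes that glycosylate α-dystroglycan or supply the sugars, 17 were tested, with 2 higher and 9 lower in control and 2 higher and 7 lower in Vegfc-deficient mice (medians -0.44 and -0.28). Dpm1, of dolichol phosphate mannose synthesis, had log2 fold changes of -1.17 and -1.15, Pomgnt1, which extends the O-mannose of dystroglycan, of -0.66 and -1.05, and Dolk, the dolichol kinase, of -0.68 and -0.80. These were called in both genotypes in CPM, and all 3 had positive values under the cardiomyocyte scaling. Relative to the shifted median of all genes, Dpm1 was at -1.52, Pomgnt1 at -0.83 and Dolk at -0.82 in control mice. All 14 genes of the costamere and of membrane repair were tested, with 3 higher and 8 lower in control and 3 higher and 5 lower in Vegfc-deficient mice (medians -0.84 and -0.61). Vcl, the gene of vinculin, rose by 1.40 and 2.60 on the log2 scale. Under the cardiomyocyte scaling Vcl lay above the shifted median of all genes by 1.59 and 2.66, which largely repeats the change in CPM. Cavin4, a caveolar protein of muscle, had log2 fold changes of -3.34 and -2.38, and of -0.14 and 0.25 relative to the cardiomyocyte markers. Trim72, a membrane repair protein, had log2 fold changes of -3.00 and -1.88, and of 0.38 and 0.93 relative to those markers. Relative to the shifted median of all genes, Cavin4 was at -4.23 and Trim72 at -3.72 in control mice.

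The second comparison asked whether these genes differed between Vegfc-deficient and control mice. After MI 0 of the 8 genes passed the adjusted test of edgeR, as did 0% of all genes, and 1 of 8 had an unadjusted p under 0.05. The DESeq2 Wald test called 58 genes in all and 0 of the 8. The gene past the unadjusted threshold was Dag1, at 138 to 176 CPM in Vegfc-deficient and 117 to 126 CPM in control MI libraries. It was the 1 gene of the 8 whose groups did not overlap, where 12.1% of all genes did not overlap in either direction. Its log2 fold change was 0.33 (95% interval 0.030 to 0.62, adjusted p = 0.608 by edgeR), 0.20 without M35, and -0.60 relative to the cardiomyocyte markers, a scaling that moved the median of all genes to -0.79.

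The log2 fold changes of the other 7 genes between MI genotypes, with 95% intervals, all included 0. They were 0.15 (-0.29 to 0.59) for Dmd, 0.27 (-0.014 to 0.56) for Utrn, 0.019 (-0.31 to 0.34) for Sgcb, 0.073 (-0.32 to 0.47) for Sgcd and -0.038 (-0.53 to 0.45) for Sntb1. The widest were 0.40 (-0.75 to 1.55) for Sgca and 0.46 (-0.52 to 1.45) for Dtna. M35, with the highest cardiomyocyte sum of the MI libraries, was the highest MI library in both, and without it the log2 fold change was -0.36 for Sgca and -0.21 for Dtna.

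In naive hearts 0 of the 8 genes passed the adjusted test of edgeR between the genotypes, as did 0% of all genes, and 0 of 8 had an unadjusted p under 0.05. The DESeq2 Wald test called 14 genes in all and 0 of the 8. Log2 fold changes ran from -0.17 for Sgca to 0.44 for Sgcd. All 3 Vegfc-deficient libraries lay above both controls in Sgcd (95% interval -0.016 to 0.90), the 1 gene of the 8 whose naive groups did not overlap, where 22.4% of all genes did not overlap in either direction. Its log2 fold change was 0.52 without M149, labelled naive Vegfc-deficient. The MI response differed between the genotypes for 0 of the 8 genes by edgeR's interaction test, which called 0% of all genes, and 0 of 8 had an unadjusted p under 0.05. The DESeq2 Wald test of the interaction called 53 genes in all and 0 of the 8. The interaction was 0.56 (95% interval -1.14 to 2.26) for Sgca and 0.38 (-0.062 to 0.82) for Dag1, and the intervals of all 8 genes included 0.

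The genes whose log2 CPM was most like that of Dmd over the 11 libraries were Trak2 (r = 0.986), Sh2d4a (0.978), Cep68 (0.977), Ppp2r3c (0.976) and Ghr (0.972). With the group means removed, r was 0.970, 0.955, 0.923, 0.935 and 0.944. The genes most like Utrn were Arhgap42 (r = 0.901), Kansl1l (0.887), Kdm1b (0.873), Fcer2a (0.844) and Dapk2 (0.831). With the group means removed, these had r of 0.976, 0.881, 0.873, 0.760 and 0.917. All values share the library totals.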

How the data were processed

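Stranded mRNA libraries from left ventricle of 11 mice were sequenced. The values that the authors deposited are read counts for each Ensembl gene, not normalized. The submitters' processing notes name cutadapt 1.13, STAR, HTSeq 0.6.1p1, DESeq2 1.14.1 and mm10. The strand setting and annotation release are not given in the sources used here. Symbols and exon lengths came from GENCODE M21, which held 24942 of the 25006 gene IDs.

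Genes passing filterByExpr were fitted in edgeR 4.0.16 (R 4.3.3) with TMM scaling and the quasi-likelihood test. All 11 libraries entered 1 fit, so that the 4 groups share an estimate of the spread. A gene was called at a Benjamini-Hochberg adjusted p under 0.05. There were 5 comparisons, MI against naive within each genotype, Vegfc-deficient against control in MI and in naive hearts, and the interaction. Alternatives were DESeq2 1.42.0, its size factors, TMM without ribosomal, haemoglobin and mitochondrial genes, cardiomyocyte scaling, other filters, a stricter threshold, fits of only the groups compared and omission of each library. Log2 CPM used a prior count of 2. The fit was tested on simulated data.

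The 8 genes and all lists were chosen with earlier results of these data known. Beside the 8 genes, the text names Sgce, Sspn, Sntb2, Dtnb, Cav3, Nos1 and Lama2, the 3 genes per list with the largest mean MI change in size, the 5 genes most like Dmd and Utrn, and Vegfc, Lyz2 and Xist as label checks. P-values measure the spread between single mice. Libraries of a group differed by more than counting noise (a chi-square per gene of at least 8.65), so none was counted as a duplicate.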

Additional observations from a re-analysis of the deposited data

How the results depend on the processing

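No paired analysis was possible because the labels give mouse identifiers and no replicate numbers shared between groups. With 1 library left out, the number of the 8 genes called by MI ran from 3 (without M45) to 6 in control and from 3 (without M900) to 5 in Vegfc-deficient mice, and it was 3 in Vegfc-deficient mice at an adjusted p under 0.01. The counts for genotype and interaction were 0 under every alternative run. Scaling to the cardiomyocyte markers, which themselves fell with MI, turned signs. MI log2 fold changes in control mice became 3.21 for Dmd, 3.80 for Utrn, 3.28 for Dag1, 0.41 for Sgca, 3.22 for Sgcb and 1.15 for Dtna. In Vegfc-deficient mice they became 2.38 for Dmd, 2.73 for Dag1, 0.20 for Sgca, 2.54 for Sgcb, 3.01 for Sgcd and 0.63 for Dtna. Between MI genotypes they became -0.60 for Dmd, -0.45 for Utrn, -0.60 for Dag1, -0.38 for Sgca, -0.72 for Sgcb, -0.62 for Sgcd and -0.30 for Dtna. The interaction became -0.48 for Utrn, -0.54 for Dag1, -0.21 for Sgca, -0.67 for Sgcb and -0.52 for Dtna. Omitting 1 library turned the sign only of values that had not passed the test. The MI change of Sgcd in control mice ran from -0.0035 to 0.20. Between MI genotypes, Dmd ran from -0.021 to 0.29, Sgca from -0.36 to 0.83, Sgcb from -0.080 to 0.16, Dtna from -0.21 to 0.85 and Sntb1 from -0.081 to 0.025. Between naive genotypes Utrn ran from -0.024 to 0.12. The interaction ran from -0.25 to 0.096 for Dmd, from -0.19 to 0.999 for Sgca, from -0.034 to 0.24 for Sgcb and from -0.43 to 0.64 for Dtna. The cause was not tested. The other scalings, filters and tests turned no sign among the 8 genes. The MI calls of Sgca and Dtna held under every alternative but the cardiomyocyte scaling, from -3.33 to -2.64 and -3.18 to -2.03 for Sgca and from -2.76 to -2.05 and -2.78 to -1.79 for Dtna when 1 library was left out. When 1 naive control was left out, the other was assumed to vary like the other groups.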
